A study of Homo sapiens with 7 samples.

Results

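The regions described here are the H3K4me2 peaks of T-47D cells that share at least 1 bp with an H3K27me3 peak. They were chosen by intersecting the deposited H3K4me2 and H3K27me3 peak lists on chromosomes 1 to 22 and X, and 767 of 64561 H3K4me2 peaks met the rule. T-47D is an estrogen receptor-positive luminal breast cancer line, grown per the labels in medium with 10% serum to 70 to 80% confluence, with no treatment named. Chromatin immunoprecipitation and sequencing (ChIP-seq) gave 1 library each for H3K4me2, H3K27me3, H3K27ac, H3K36me3, H2A.Z and H3K9me3. The input library was not analysed here, and no mark had a replicate. The list labelled H2A.Z met 0.246% of H3K4me2 peaks and the list labelled H3K9me3 met 11.2%, while H2A.Z is known from active promoters and H3K9me3 from heterochromatin, so both are named below as lists with those labels. Whether the labels were exchanged was not tested, and what each value of these lists measures depends on it.

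H3K4me2 is dimethylation of lysine 4 of histone H3, placed by the MLL and SET1 family of methyltransferases at promoters and enhancers. H3K27me3 is placed by Polycomb repressive complex 2, whose catalytic subunits are EZH1 and EZH2, and marks silenced genes. Regions that carry H3K4 methylation together with H3K27me3 are called bivalent and are best known from promoters of developmental genes in embryonic stem cells. ChIP-seq of a cell culture does not tell whether both marks sit on the same nucleosome, the same allele or the same cell. An overlap of peaks is therefore a description of position, and the name bivalent was not tested.

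Overlap with H3K27me3 was rare among H3K4me2 peaks, at 1.19% (95% exact binomial interval 1.11 to 1.27). This share is the selection rule itself and is given as a description. The overlapping peaks were compared with 4145 H3K4me2 peaks that lay within 5 kb of H3K27me3 without touching it by a shared base, called near peaks here, and, where useful, with the remaining 59649 peaks farther away. Each interval below is a 95% exact binomial interval that covers counting error only, with peaks taken as independent, which makes it too narrow where peaks lie close together. With 1 library per mark no test between conditions or replicates was possible, and no p-value is given.

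The shared stretch was short. Each overlapping peak shared a median of 392 bp with H3K27me3, with quartiles of 224.5 and 501 bp, a lowest value of 3 bp and a highest of 1401 bp. This was a median of 60.9% of the H3K4me2 peak. In all, 279529 bp were shared, or 52.5% of the 532679 bp that these peaks covered. The commonest width of a peak in both lists was 501 bp, and 129 of the 767 overlaps were exactly 501 bp long. Of those, 93 were a 501 bp H3K4me2 peak covered whole. Below 100 bp there were 93 overlaps, and at 750 bp or more there were 22.

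Most overlaps were at an edge. In 597 peaks, or 77.8% (74.7 to 80.7), H3K27me3 covered 1 end of the H3K4me2 peak and left the other free. The left end was covered in 279 and the right end in 318. Another 119 peaks (15.5%, 13.0 to 18.3) lay wholly inside H3K27me3, and 93 of these were 501 bp wide. In 45 peaks (5.87%, 4.31 to 7.77) the H3K27me3 peak sat within a wider H3K4me2 peak, whose median width was 872 bp. The last 6 peaks had H3K27me3 over both ends with a gap between. Edge overlaps covered a median of 51.9% of the H3K4me2 peak. Peaks of equal width that overlap without coinciding always meet at an edge. Of the 597 edge overlaps, 356 were H3K4me2 peaks of 501 bp. Of the 774 H3K27me3 peaks that met an H3K4me2 peak, 375 were 501 bp wide. The edge share is therefore bound up with the commonest peak width.

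**Figure D1:**
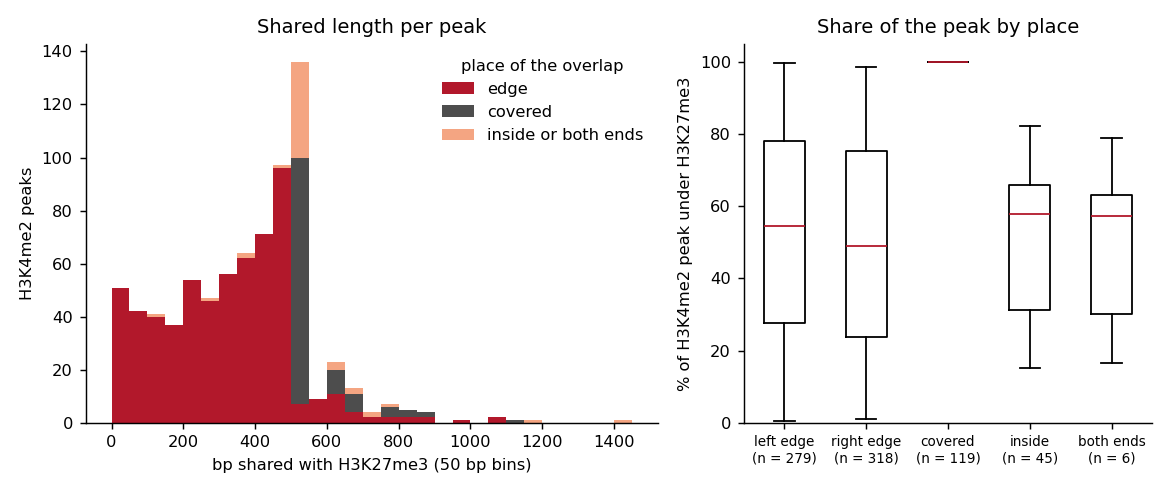
Length in bp that each of the 767 H3K4me2 peaks shared with H3K27me3, in 50 bp bins coloured by the place of the overlap (left), and the percentage of each H3K4me2 peak under H3K27me3 by place (right; box for quartiles, line for the median, whiskers for the range). The highest column starts at 500 bp and holds most of the peaks that were covered whole, while the edge overlaps spread from 3 bp upward.

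The pairing was close to 1 to 1. The 767 peaks met 774 H3K27me3 peaks in 779 pairs. Of the H3K4me2 peaks, 755 met 1 H3K27me3 peak and 12 met 2, and 5 H3K27me3 peaks met 2 H3K4me2 peaks each. Among the overlapping peaks, 4 also overlapped another of their own class and so share sequence. The H3K27me3 peaks that took part had a median width of 627.5 bp, against 501 bp for the 7188 H3K27me3 peaks within 5 kb of H3K4me2 without overlap and 501 bp for the 56530 farther away. Peaks over 2000 bp made up 7.36% (5.63 to 9.44) of those that took part, 3.78% (3.35 to 4.25) of those within 5 kb and 3.78% (3.62 to 3.94) of those farther away. A wider peak meets another list more often by its length alone, so these widths are bound up with the rule.

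On the H3K4me2 side the overlapping peaks were narrow. Their median width was 501 bp, as for near peaks, against 629 bp for those farther away, and 450 of 767 were exactly 501 bp wide (58.7%, 55.1 to 62.2). Near peaks were at 501 bp in 55.3% and farther peaks in 47.3%. The share of H3K4me2 peaks that overlapped H3K27me3 was 1.45% (1.32 to 1.59) at widths up to 501 bp and 1.12% (0.979 to 1.27) from 502 to 1000 bp. It was 0.698% (0.540 to 0.888) from 1001 to 2000 bp and 0.508% (0.285 to 0.836) over 2000 bp. The share was thus lower in each wider class, although length alone would give wider peaks more overlaps. Taken only over peaks that overlapped or lay within 5 kb, the overlapping share was 16.4%, 15.2%, 12.9% and 15.2% in the same 4 classes, and the intervals of these shares overlapped one another.

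Of the overlapping peaks, 340 had their centre under 250 bp from the nearest H3K27me3 centre, and the others lay farther from it. A short distance follows in part from the overlap itself. This was the fullest of the 20 bins of 250 bp up to 5 kb. The next bin, 250 to 500 bp, held 223 peaks. From 500 to 1500 bp the bins held between 245 and 293 peaks, and the count fell to 151 at 4750 to 5000 bp. Among near peaks the gap had a median of 2073 bp.

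**Figure D2:**
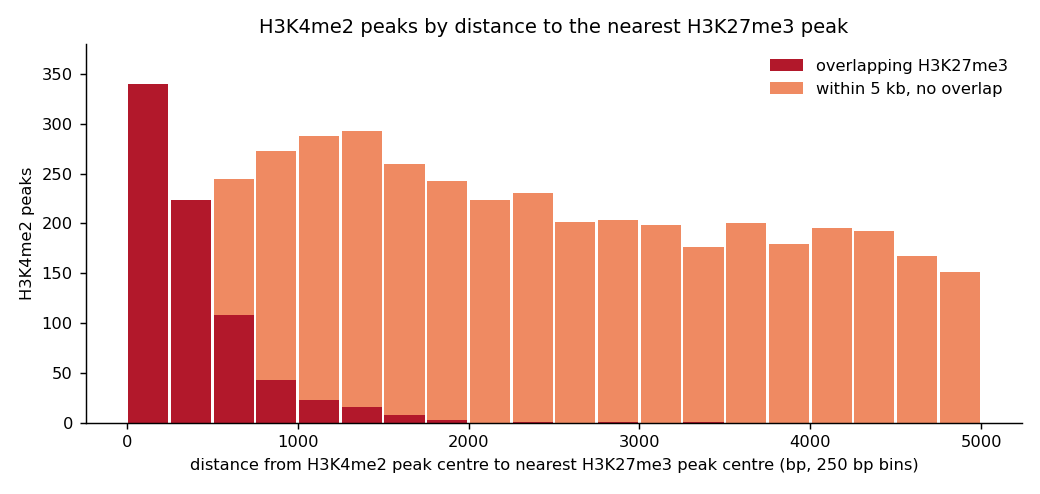
Number of H3K4me2 peaks (y axis) by the distance in bp between the peak centre and the nearest H3K27me3 peak centre (x axis, 250 bp bins), with overlapping peaks in red and near peaks in orange. The first bin is the highest, with 340 peaks, and the second is lower, with 223.

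The line between the classes is a matter of few bases at its margin. The fewest shared bases were 3 bp, in a peak on chromosome 14 (36840606 to 36841106). Peaks on chromosome 16 (86417037 to 86417537) and on chromosome 17 (72133081 to 72133765) shared 6 bp each. One on chromosome 11 (122310935 to 122311698) shared 7 bp, and one on chromosome 5 (71475216 to 71475716) shared 8 bp. On the other side of the line, a near peak on chromosome 15 (89415867 to 89416735) abutted H3K27me3 with a gap of 0 bp. A gap of 1 bp left a peak on chromosome 17 (33212724 to 33213224) outside the class, and a gap of 2 bp did so on chromosome 10 (3051979 to 3052479). The next were gaps of 3 bp, found on chromosome 21 (36042674 to 36043472), and of 4 bp, found on chromosome 20 (58132660 to 58133417). Coordinates are hg19, counted from 1.

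The longest overlaps differed in form. On chromosome 11, a 2174 bp H3K4me2 peak (27721040 to 27723213) shared 1401 bp with H3K27me3, which covered both of its ends. On chromosome 6, a 3910 bp peak (3226262 to 3230171) held 1154 bp of H3K27me3 in its interior, and no H3K27me3 lay within 5 kb outside it. On chromosome 7, a 1112 bp peak (1626234 to 1627345) was covered whole. On chromosome 12 (132689017 to 132690473) the left 1082 bp of a 1457 bp peak were shared, and on chromosome 7 (1276609 to 1277791) the right 1063 bp of an 1183 bp peak. None of these 5 overlapped H3K27ac, H3K36me3 or the lists labelled H2A.Z and H3K9me3. The peaks on chromosomes 6, 7 and 12 lay between 1.14 and 3.23 Mb from a chromosome end, and the one on chromosome 11 lay 27.7 Mb from it.

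The widest overlapping peaks shared little of their length. A 5089 bp peak on chromosome 20 (25840070 to 25845158) held 769 bp of H3K27me3, or 15.1% of its width. It also overlapped H3K27ac and the list labelled H3K9me3, and it lay 0.403 Mb from the longest span of chromosome 20 without a peak of any list. After the chromosome 6 peak above came a 3598 bp peak on chromosome 11 (117840789 to 117844386), which shared 454 bp at its left end. A 3034 bp peak on chromosome 17 (72917531 to 72920564) shared 611 bp at its right end. A 2859 bp peak on chromosome 7 (86848189 to 86851047) shared 126 bp, or 4.41% of its width, and overlapped H3K27ac. Most overlapping peaks were far narrower, with an upper quartile of 699.5 bp.

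H3K27me3 lay on both flanks of most overlapping peaks. Within 5 kb outside the peak, it was present on both sides of 492 (64.1%, 60.6 to 67.5), on 1 side of 259 (33.8%) and on neither side of 16. Over all H3K4me2 peaks the share with both flanks was 2.48%. Near peaks had H3K27me3 on both sides in 1111 of 4145 (26.8%, 25.5 to 28.2), a difference of 37.3 percentage points. The size of this difference depends on where near peaks end. Near peaks with a gap of 2 kb or less had both flanks in 43.4%, which made it 20.7 points. Both classes have H3K27me3 on at least 1 side nearly by definition, and an overlapping H3K27me3 peak that runs past the end of the H3K4me2 peak counts for its flank. The free side of an edge overlap held H3K27me3 within 5 kb in 355 of 597 peaks (59.5%, 55.4 to 63.4), against 26.8% for the side of near peaks away from their nearest H3K27me3 peak. That side of a near peak can hold none closer than the nearest one, which lowers its share by construction, most of all in the shorter window. Within 10 kb it did so in 73.0% of edge overlaps (69.3 to 76.6) and 46.4% of near peaks (44.9 to 48.0). Within 50 kb it was 87.1% of edge overlaps (84.1 to 89.7) and 74.7% of near peaks (73.4 to 76.0).

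The overlapping peaks also lay in sequence with more H3K27me3 from 5 to 100 kb outside the peak. The classes were set by H3K27me3 itself, so this is not independent of the rule, and the means below have no interval. From 5 to 10 kb outside the peak, H3K27me3 covered a mean of 12.3% of the sequence around overlapping peaks, 9.70% around near peaks and 0.335% around farther ones. From 10 to 50 kb it covered 10.4% around overlapping peaks, 7.67% around near peaks and 0.650% around farther ones. From 50 to 100 kb the overlapping peaks had 8.35%, the near peaks 6.44% and the farther ones 0.994%. H3K4me2 itself was sparse around both classes close to H3K27me3. From 10 to 50 kb it covered 1.79% around overlapping peaks and 1.98% around near peaks, against 4.35% around farther ones.

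Oriented with the H3K27me3 side to the right, the edge overlaps had few active marks on either side. H3K27me3 covered 73.1% of the bin from 0 to 500 bp on its side and 5.05% of the bin centred 750 bp to the other side, which the class leaves free next to the peak. It returned to 13.5% at 1250 bp on that other side. H3K27ac lay within 10 kb of 16 of 597 peaks on the H3K27me3 side (2.68%, 1.54 to 4.32) and of 22 on the other (3.69%, 2.32 to 5.53). H3K36me3, a mark of transcribed gene bodies, did so for 12 (2.01%, 1.04 to 3.48) and 7 (1.17%, 0.473 to 2.40). Further H3K4me2 peaks lay within 10 kb in 19.8% (16.6 to 23.2) and 20.9% (17.7 to 24.4). For each of these lists the intervals of the sides overlapped. Closer in, H3K27ac covered 0.162% of the bin centred 1250 bp from the peak centre on the H3K27me3 side and 0.955% of that on the other side. At 3250 bp the order was the other way, with 0.960% on the H3K27me3 side and 0.110% on the other. These means have no interval, so no difference between the sides is read from them.

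Near peaks were asymmetric for H3K36me3, in part by construction. The sides were set by the nearest H3K27me3 peak, and 0 of the 7188 H3K27me3 peaks within 5 kb of H3K4me2 met H3K36me3. Within 10 kb H3K36me3 lay on the side of the nearest H3K27me3 peak in 30 of 4145 (0.724%, 0.489 to 1.03) and on the other side in 212 (5.11%, 4.46 to 5.83). H3K27ac was on the H3K27me3 side in 5.67% (4.98 to 6.42) and on the other in 7.43% (6.65 to 8.27). On the other side, H3K36me3 was less frequent at edge overlaps (1.17%) than at near peaks (5.11%). On the H3K27me3 side it was 2.01% at edge overlaps and 0.724% at near peaks. The other side itself held H3K27me3 within 10 kb in 73.0% of edge overlaps and 46.4% of near peaks. How far this enters the contrast was not tested.

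**Figure D3:**
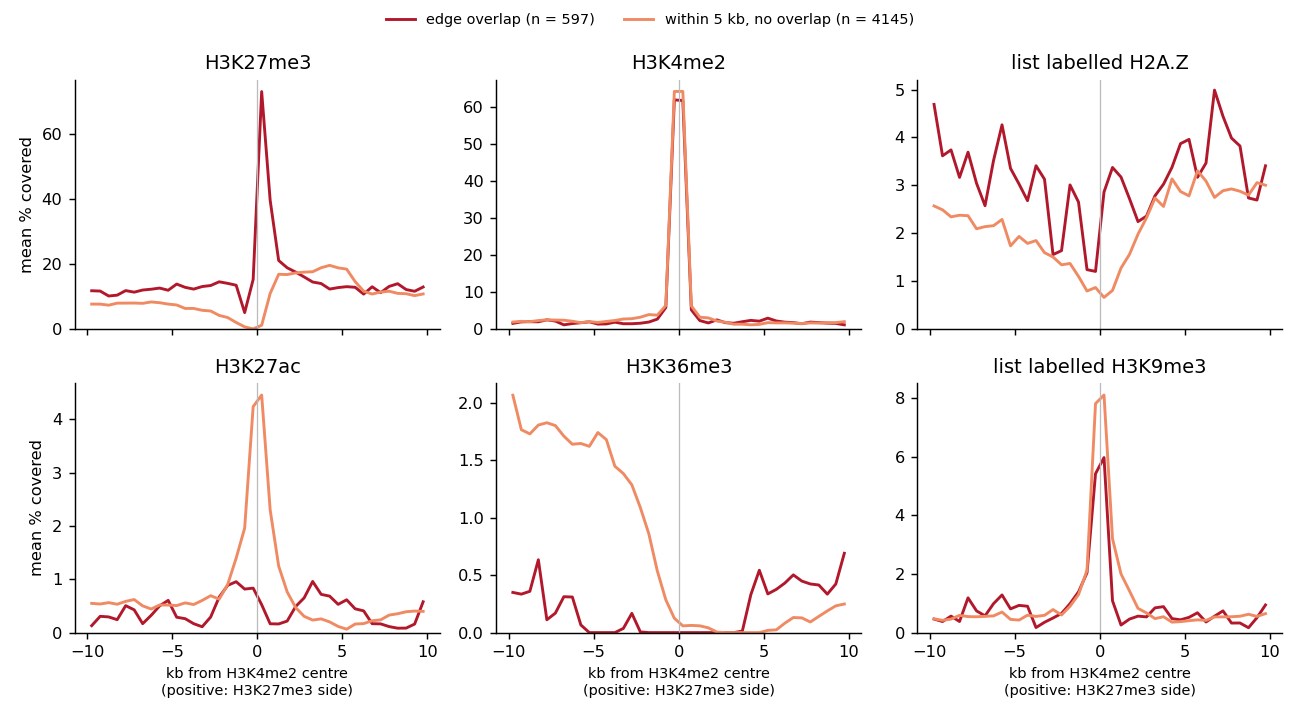
Mean percentage of sequence covered by each of the 6 peak lists (y axes, separate scales) in 500 bp bins by distance in kb from the H3K4me2 peak centre (x axes), with positive distances toward the overlap or the nearest H3K27me3 peak. Red lines are the 597 edge overlaps and orange lines the 4145 near peaks. H3K36me3 is higher on the left of near peaks, and H3K27ac has a central maximum of 4.46% in near peaks and stays under 1% in edge overlaps.

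The other 4 lists were not used to choose the regions. Of the 767 overlapping peaks, 639 met none of them (83.3%, 80.5 to 85.9), against 81.3% of near peaks (80.1 to 82.5) and 65.1% of farther ones (64.7 to 65.5). H3K27ac, a mark of active promoters and enhancers, was on 14 of the overlapping peaks (1.83%, 1.0 to 3.04), on 306 near peaks (7.38%, 6.60 to 8.22) and on 16245 farther ones (27.2%, 26.9 to 27.6). Over all H3K4me2 peaks this share was 25.7%. The difference of overlapping minus near peaks was -5.56 percentage points (95% Newcombe interval -6.67 to -4.13). It was -2.47 points against near peaks with a gap of 2 kb or less and -10.2 points among peaks above the median width of their list.

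Overlapping and near peaks formed a gradient in H3K27ac rather than a break. In near peaks the H3K27ac share was 2.67% (1.81 to 3.79) at gaps of up to 1 kb, and its interval overlapped that of overlapping peaks. It was 6.39% from 1 to 2 kb, 9.07% from 2 to 3 kb, 9.52% from 3 to 4 kb and 12.7% (10.2 to 15.5) from 4 to 5 kb. Beyond the near class it was 14.3% from 5 to 10 kb, 18.9% from 10 to 20 kb and 25.3% (24.3 to 26.3) from 20 to 50 kb. The median width was 501 bp in each class up to 10 kb and at most 631 bp beyond it. Among overlapping peaks the share did not follow the shared length. It was 2.44% (5 of 205) at 501 bp or more, 1.48% (5 of 337) at 250 to 500 bp and 1.78% (4 of 225) below 250 bp.

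By width of the H3K4me2 peak, H3K27ac was on 0.444% of overlapping peaks up to 501 bp, against 2.0% of near peaks. From 502 to 1000 bp it was on 1.27% of overlapping and 8.93% of near peaks, and from 1001 to 2000 bp on 6.06% of overlapping and 22.7% of near peaks. Over 2000 bp, 5 of 15 overlapping peaks and 41 of 84 near peaks met H3K27ac. The overlapping peaks thus had the lower share in each width class. Each class rests on few overlapping peaks with H3K27ac, at 2 of 450, 3 of 236, 4 of 66 and 5 of 15.

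The 14 overlapping peaks with H3K27ac were wider than those without it, with a median of 1578 bp against 501 bp for the other 753. Of the 14, 9 also overlapped the list labelled H3K9me3 (64.3%, 35.1 to 87.2), against 81 of the 753 (10.8%, 8.63 to 13.2). Over all overlapping peaks the share on that list was higher in each wider class, at 6.44% up to 501 bp and 9 of 15 over 2000 bp, so width and this list move together here. Near peaks with H3K27ac met the list in 49.3% (43.6 to 55.1), within the interval of the 14, and farther ones in 21.9% (21.3 to 22.6). H3K27ac touched the stretch shared with H3K27me3 in 6 of the 14 and lay only outside it in 8. The widest of them was the chromosome 20 peak above, followed by the chromosome 7 peak, a 2812 bp peak on chromosome 17 (48276410 to 48279221), a 2258 bp peak on chromosome 11 (58939001 to 58941258) and a 2127 bp peak on chromosome 5 (49896109 to 49898235). Of the 14, 3 lay within 1 Mb of the longest peak-free span of their chromosome (21.4%, 4.66 to 50.8). This was so for 9 of the 753 without H3K27ac (1.20%, 0.548 to 2.26), 1.25% of near peaks and 0.573% of farther ones. The 3 were the chromosome 20 and chromosome 5 peaks above and a 653 bp peak also on chromosome 5 (49736977 to 49737629). Also among the 14 were 2 H3K4me2 peaks on chromosome 17 that overlap each other (77772470 to 77773205 and 77772705 to 77773336).

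H3K36me3 met none of the overlapping peaks. A count of 0 of 767 allows a share of up to 0.480%, counting error only. Near peaks met it in 11 of 4145 (0.265%, 0.133 to 0.474), so a difference between these classes was not detectable at these numbers. Farther peaks met it in 4.41% (4.25 to 4.58), and all H3K4me2 peaks in 4.09%.

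The list labelled H2A.Z was on 38 overlapping peaks (4.95%, 3.53 to 6.74), on 61 near peaks (1.47%, 1.13 to 1.89) and on 60 farther ones (0.101%, 0.0768 to 0.129). Its share over all H3K4me2 peaks was 0.246%. In 35 of the 38 it touched the stretch shared with H3K27me3, and in 3 it lay outside that stretch. Overlapping peaks hold H3K27me3 sequence by the rule. This list is more frequent on H3K27me3 peaks (11.8%) than on H3K4me2 peaks (0.246%), so the contrast with near peaks is bound up with the rule. Among near peaks the share was lower at wider gaps, with 2.67% (1.81 to 3.79) at gaps of up to 1 kb and 0.321% (0.0388 to 1.15) from 4 to 5 kb. Seen from the H3K27me3 peaks, those on H3K4me2 met the list labelled H2A.Z in 65 of 774 (8.40%, 6.54 to 10.6), those within 5 kb in 8.29% (7.66 to 8.95) and those farther away in 12.2% (12.0 to 12.5). All H3K27me3 peaks did so in 11.8%. The intervals of the first 2 of these shares overlapped, so a difference between H3K27me3 peaks on H3K4me2 and those close to it was not detectable.

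The list labelled H3K9me3 was on 90 overlapping peaks (11.7%, 9.54 to 14.2), 567 near peaks (13.7%, 12.6 to 14.8) and 6570 farther ones (11%, 10.8 to 11.3), with 11.2% over all H3K4me2 peaks. The difference of overlapping minus near peaks was -1.95 percentage points, with an interval from -4.30 to 0.725 that includes 0. Of the H3K27me3 peaks on H3K4me2, 68 of 774 met the list labelled H3K9me3 (8.79%, 6.89 to 11), against 66 of 7188 within 5 kb (0.918%, 0.711 to 1.17), 1.05% farther away and 1.13% of all. These H3K27me3 peaks were grouped by whether they meet H3K4me2, on which this list is more frequent than on H3K27me3, so the contrast in large part restates that choice. The list touched the shared stretch in 67 of the 90 overlapping H3K4me2 peaks.

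**Figure D4:**
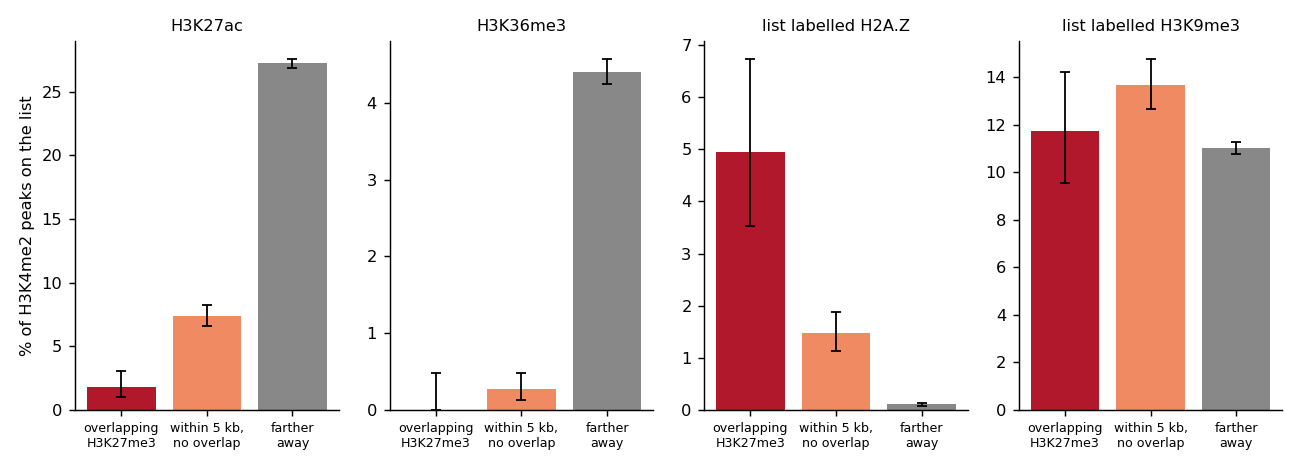
Percentage of H3K4me2 peaks (y axes, separate scales) that overlapped each of the 4 lists not used in the choice, for the 767 peaks on H3K27me3 (red), the 4145 near peaks (orange) and the 59649 farther peaks (grey). Error bars are 95% exact binomial intervals. H3K27ac and H3K36me3 rise from left to right, the list labelled H2A.Z falls, and the list labelled H3K9me3 stays between 11 and 13.7%.

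The regions were unevenly spread over chromosomes. Per 1000 H3K4me2 peaks, chromosome 14 had 25.8 overlapping ones (74 peaks, interval 20.3 to 32.3), chromosome 11 had 21.8 (87 peaks, 17.5 to 26.8) and chromosome 7 had 18.6 (64 peaks, 14.4 to 23.8). At the other end, chromosome X had 0 (of 1093 peaks, 0 to 3.37), chromosome 19 had 1.30 (3 peaks, 0.267 to 3.78) and chromosome 22 had 2.60 (3 peaks, 0.537 to 7.58). H3K27me3 peaks were also unevenly spread. They numbered 1435 per 1000 H3K4me2 peaks on chromosome 14, 1371 on chromosome 11 and 1384 on chromosome 7, against 436.4 on chromosome X, 428.7 on chromosome 19 and 699.0 on chromosome 22.

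Near peaks numbered 100.3 per 1000 H3K4me2 peaks on chromosome 14, 105.4 on chromosome 11 and 90.6 on chromosome 7, against 64.2 over all. The order of chromosomes was not the same for both classes. Chromosome 20 had 12.5 overlapping and 103.1 near peaks per 1000, chromosome 15 had 11.3 overlapping and 94.9 near, and chromosome 21 had 17.5 overlapping and 54.5 near. Of the H3K4me2 peaks that overlapped H3K27me3 or lay within 5 kb, the overlapping ones were 15.6% over the whole list (14.6 to 16.7). The highest share was 24.3% (15.1 to 35.7), on chromosome 21. On chromosome 14 they were 20.4% (16.4 to 24.97), on chromosome 11 17.1% (14.0 to 20.7) and on chromosome 7 17.1% (13.4 to 21.3). On chromosome 20, which had 1601 H3K27me3 peaks per 1000 H3K4me2 peaks, they were 10.8% (7.0 to 15.8). On chromosome X, 0 of 21 overlapped, which allows up to 16.1%. Gains and losses of chromosomes in this line can change how many peaks are called, and their part in these counts was not tested.

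Overlapping peaks were more frequent a short way in from chromosome ends than elsewhere. Ends were taken as base 1 and as the outermost peak of any list. Within 5 Mb of an end lay 137 of 767 overlapping peaks (17.9%, 15.2 to 20.8), 517 near peaks (12.5%, 11.5 to 13.5) and 5742 farther ones (9.63%, 9.39 to 9.87), against 9.91% of all H3K4me2 peaks. The difference of overlapping minus near peaks was 5.39 percentage points (2.64 to 8.42). Among peaks above the median width of their list it was 3.55 points, with an interval from -2.105 to 10.6 that includes 0, over 156 overlapping and 923 near peaks. The outermost 1 Mb did not share in this, with 2.09% of overlapping peaks, 2.17% of near peaks and 2.18% of farther ones. By distance, 1.14% of H3K4me2 peaks overlapped H3K27me3 in the outermost 1 Mb (0.650 to 1.84), 2.78% from 1 to 2 Mb (1.99 to 3.76), 2.28% from 2 to 5 Mb (1.82 to 2.83) and 1.32% from 5 to 10 Mb (1.03 to 1.67). It was 0.908% (0.793 to 1.04) beyond 40 Mb.

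A few ends held much of this. The first 5 Mb of chromosome 7 held 18 overlapping peaks among 194 H3K4me2 peaks, the first 5 Mb of chromosome 5 held 14 among 109, and the last 5 Mb of chromosome 21 held 9 among 211. Of 41 end zones with an H3K4me2 peak, 28 held an overlapping one. Without the zone on chromosome 7 the shares within 5 Mb were 15.9% for overlapping peaks (13.3 to 18.7) and 11.7% for near peaks (10.7 to 12.7). Without the 3 zones they were 13.2% (10.8 to 15.9) and 10.6% (9.71 to 11.6), a difference of 2.58 points with an interval from 0.106 to 5.39. Leaving out these zones was chosen after seeing the data.

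**Figure D5:**
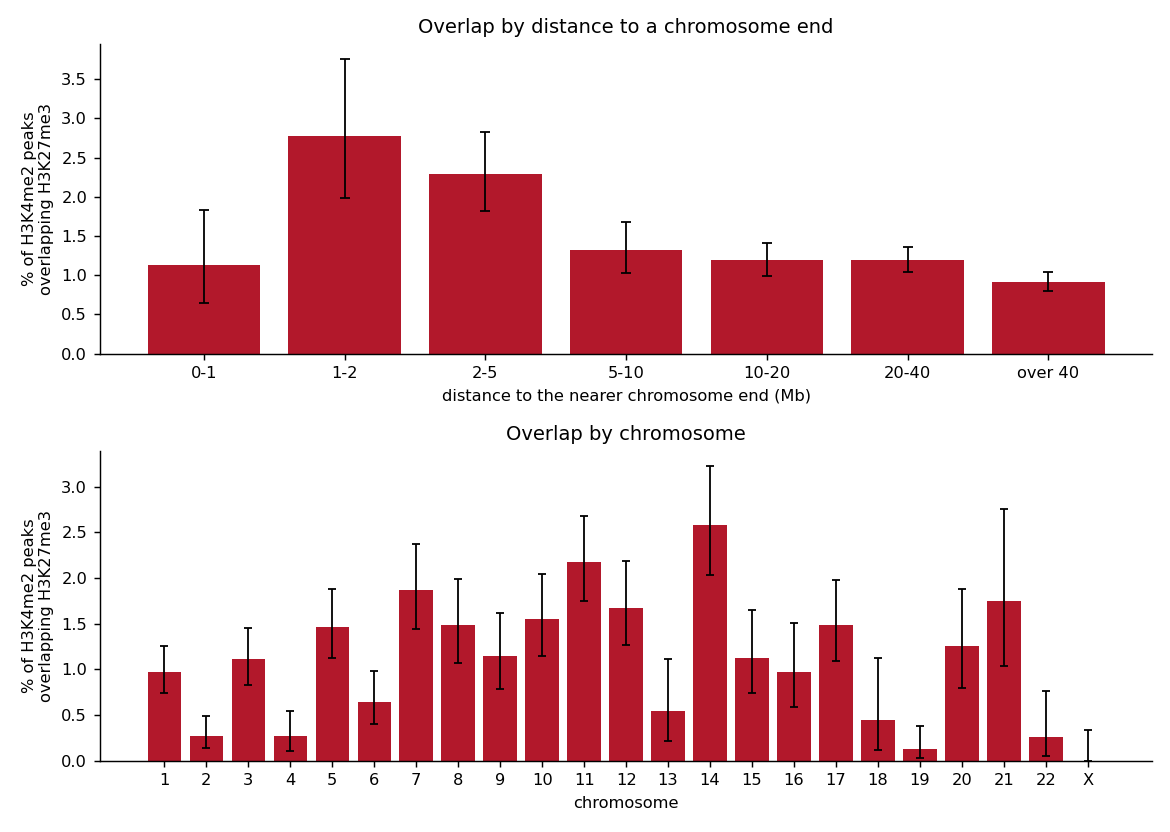
Percentage of H3K4me2 peaks that overlapped H3K27me3 (y axes) by distance in Mb to the nearer chromosome end (top) and by chromosome (bottom), with 95% exact binomial intervals. The share is highest from 1 to 2 Mb at 2.78%, and it is highest on chromosome 14 and 0 on chromosome X.

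Overlapping peaks were mostly single along the chromosome. With a gap of at most 100 kb between neighbours, 522 stood alone, 91 pairs formed, and 63 peaks (8.21%) made 19 clusters of 3 to 5. Near peaks formed 424 clusters with 42.1% of their number, but they are the larger class, so the shares are not comparable. The make-up of neighbours also depends on the size of the neighbour class, but the same neighbour class can be compared around both kinds of peak. Over all H3K4me2 peaks, 1.19% were overlapping and 64.2 per 1000 were near. Of 3628 H3K4me2 neighbours within 100 kb of overlapping peaks, 8.60% were overlapping too, against 5.40% of the 21460 neighbours of near peaks. Near peaks were also more frequent around overlapping peaks, at 31.9% of their neighbours, against 27.1% around near peaks. These neighbour counts hold a pair more than once and have no interval. Both neighbour classes are set by H3K27me3, which covered more of the sequence around overlapping peaks, so the counts are not independent of the rule.

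The 5 largest clusters by number lay on chromosomes 7, 10, 11 and 12. On chromosome 7 (4325986 to 4489795), 5 of 6 H3K4me2 peaks in 163810 bp overlapped H3K27me3, which had 46 peaks over 27.4% of the span. The list labelled H2A.Z had 34 peaks there. On chromosome 10 (13432605 to 13605674), 5 of 6 H3K4me2 peaks overlapped, and H3K27me3 had 49 peaks over 24.0% of 173070 bp. A second cluster on chromosome 10 (36929910 to 37014135) had 4 of 4 H3K4me2 peaks overlapping, with 12 H3K27me3 peaks and 7 peaks of the list labelled H3K9me3. On chromosome 11 (114035768 to 114163313), 4 of 7 overlapped, and neither of the lists labelled H2A.Z and H3K9me3 had a peak in the span. The fifth, the shortest of those with 3, lay on chromosome 12 (125667712 to 125694569), where 3 of 4 H3K4me2 peaks in 26858 bp overlapped and H3K27me3 covered 34.7%. None of these 5 spans held an H3K27ac or H3K36me3 peak.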

How the data were processed

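Each mark had 1 library and 1 deposited list of chromosome, start, end and peak name, with no height, score or p-value. The submitters' processing notes name HOMER 4.2, Bowtie2 2.1.0 and the builds hg19 and GRCh37 without a role for any of them. How the authors called peaks, whether the input entered and how deep each library was is not given in the sources used here. Sequence outside a deposited peak can still carry signal.

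Coordinates are hg19, counted from 1. Chromosome Y and the contigs without a place on a main chromosome were kept out of the comparisons. Within a list, overlapping peaks were joined before shared bp and gaps were counted. Near peaks had a gap of 5 kb or less. Clusters had at least 3 peaks with gaps of at most 100 kb. Intervals on shares are exact (Clopper-Pearson) at 95%, also for a count of 0, and intervals on differences follow Newcombe. The functions that count shared bp and gaps were tested on simulated peaks against direct counting, and the confidence intervals were not part of that test. Neither a genome nor genes of hg19 were used here, so regions have no gene names or sequences. The planned gene lists were not analysed. The members, comparisons and rule for named regions (most and fewest shared bp, widest, smallest gap, largest clusters, those on H3K27ac, and chromosomes at both extremes) were chosen with earlier results of these data known. The split by gap, by side and by distance to the longest peak-free span was added after seeing the data. Computation used Python 3.11.15, numpy 2.4.6, pandas 2.3.3, scipy 1.17.1, statsmodels 0.14.6 and matplotlib 3.10.9.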

Additional observations from a re-analysis of the deposited data

Results flagged for a closer look

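Peaks beyond chromosomes 1 to 22 and X were not part of the comparisons above, yet many of the H3K4me2 peaks there overlapped H3K27me3. Of 174 H3K4me2 peaks on chromosome Y, unplaced contigs and alternate contigs, 60 overlapped H3K27me3 (34.5%, exact interval 27.5 to 42.1), against 1.19% on the analysed chromosomes. On the contigs alone it was 59 of 171, over 19 contigs. Other lists were frequent on these contigs with or without H3K27me3, unlike on the 767 overlapping peaks above. Those 767 met H3K27ac in 1.83%, H3K36me3 in 0%, the list labelled H2A.Z in 4.95% and the list labelled H3K9me3 in 11.7%. H3K27ac was on 27 of the 60 overlapping peaks (45%, 32.1 to 58.4) and on 56 of the other 114 (49.1%, 39.6 to 58.7). The list labelled H3K9me3 was on 25 of the 60 (41.7%) and 45 of the 114 (39.5%), and H3K36me3 on 25 of the 60 (41.7%, 29.1 to 55.1) and 29 of the 114 (25.4%, 17.7 to 34.4). The list labelled H2A.Z was on 33 of the 60 (55%, 41.6 to 67.9) and 31 of the 114 (27.2%, 19.3 to 36.3). The part of how reads map to these contigs was not tested.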

How the results depend on the processing

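Of 79 values recomputed under alternatives, 56 stayed within the 95% interval of the reported value, 23 moved outside it and 0 changed direction. The overlapping share, the median shared length and the edge share are always positive, so their direction could not change. Nor could that of the H3K36me3 difference, because H3K36me3 was on 0% of overlapping peaks in every setting. Chromosome X held 0 overlapping and 21 near peaks, so the alternative that left it out could hardly move the values. No paired analysis was possible because each mark had 1 library.

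The share of H3K4me2 peaks on H3K27me3 was 1.04% with an overlap of at least 100 bp, 0.488% among peaks above the median width of their own list, for both marks and 1.31% with peaks merged within 1 kb. Under the same 3 settings the median shared length was 432, 480.5 and 432 bp, and with merging the share met at an edge was 70.3%. The other values are differences in percentage points, overlapping minus near. For both flanks it was 27.9 among wider peaks, 20.7 with near gaps of 2 kb, 47.3 with 10 kb and 29.4 with flanks of 10 kb. The cluster shares grow with the size of the class, so their differences are given only to show that dependence and compare nothing between the classes: -8.45 among wider peaks, -31.3 with merging, -14.7 and -47.9 with near gaps of 2 and 10 kb, and -20.9 and -42.3 with cluster gaps of 50 and 200 kb. For H3K27ac it was -10.2 among wider peaks, and -2.47 and -8.11 with near gaps of 2 and 10 kb. For the list labelled H3K9me3 it was -4.39 among wider peaks. For chromosome ends it was 2.19 with zones of 2 Mb and 2.58 without the 3 fullest zones, a setting chosen after seeing the data. Near gaps, flanks, zones and cluster gaps redefine what is counted. Asking for at least 100 bp of overlap lowers the share and raises the median shared length by construction. For the other moves the cause was not tested. The differences for the list labelled H2A.Z and for H3K36me3 stayed within their intervals in all 8 alternatives each, and leaving out chromosome 11, which held the most overlapping peaks, moved none of the 10 results. The difference for the list labelled H2A.Z is bound up with the rule in every setting.

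With 1 library per mark and unknown depth, none of these values carries replicate error, and a missing overlap can be a peak under the threshold.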
